A study of Mus musculus with 6 samples.

Results

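The potassium channel genes of the angiotensin II-infused mouse aorta were described here, as all rows whose symbol begins with Kcn, then letters and a digit, and whose mean expected count over the 6 libraries was at least 10. Of 18749 gene rows, 93 had such a symbol and 56 reached that mean. One of the other 37, Kcna10, had no count in any library. The rule used the mean over both groups and no difference between them. The values nearest to it were those of Kcnmb4 (mean expected count 10.9) and Kcns1 (11.7) inside and Kcnip2 (9.50) and Kcnv1 (8.01) outside.

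The libraries were made from poly(A)-selected RNA of whole aortas. All recipients were Apoe-/- mice, which lack apolipoprotein E, and all had received Ang II for 28 days. In 3 of them the transplanted bone marrow was Apoe-/- (control recipients, controls 1 to 3), and in the other 3 it was Apoe-/-Sept2C111A, carrying the septin gene allele Sept2C111A (Sept2C111A recipients 1 to 3). The allele is thus confined by design to cells of marrow origin, and the recipient genotype was the same in both groups. How far the marrow was replaced, and the age and sex of the animals, are not stated by the labels. The labels give 3 samples per group and do not say whether each is 1 animal or how they were batched, so p-values measure the spread between these samples.

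Potassium channels let potassium leave the cell, which drives the membrane towards negative voltage, closes voltage-gated calcium channels and relaxes arterial smooth muscle. Voltage-gated (Kv), calcium-activated (BK, SK and IK), inward rectifier (Kir) and background (K2P) channels are encoded by separate gene families, many with auxiliary subunits that tune the pore. Endothelial cells, macrophages, lymphocytes, nerve and heart muscle use other members of the same families. In RNA of a whole tissue, fewer cells of a type and less RNA per cell cannot be told apart.

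By class, the 56 members were 19 voltage-gated pore subunits, 6 silent Kv subunits, 8 auxiliary subunits of voltage-gated channels, 9 calcium- or sodium-activated channel genes, 9 inward rectifiers and 5 K2P channels. Library totals ran from 17082719 to 20494928 expected counts, so that 10 counts were worth between 0.494 and 0.558 CPM (the usual depth-scaled counts, on TMM-scaled library sizes). In 3 libraries marker genes stood apart, and some members were extreme in the same libraries. Summed contractile smooth muscle markers (18 genes, all with a row, none at 0 throughout) were at 7991 CPM in control 3 and at 21707 to 31152 CPM in the other 5 libraries. Cardiac Myh6, a myosin of atrial muscle, was at 856 CPM in Sept2C111A recipient 3 and at 0.297 to 27.2 CPM in the others. Th, the enzyme that starts catecholamine synthesis in sympathetic neurons, was at 23.8 CPM in control 1 and at 0.210 CPM or less in the others. Adventitial fibroblast markers (14 genes) differed by group, at 6642, 8091 and 7495 CPM in the controls and 11923, 10829 and 14997 CPM in the Sept2C111A recipients. Of these 14, 8 lay wholly higher and 0 wholly lower in Sept2C111A recipients, against 11.2% and 11.9% of all genes. The part of fibroblasts in the members was not tested. The third Sept2C111A file carries another library number in its header than the others, and it was used as the labels assign it.

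No member passed edgeR's quasi-likelihood test after Benjamini-Hochberg adjustment over 14466 genes. A total of 50 members passed the filter on low counts and entered that test, and 0 were called higher and 0 lower, as for all genes (0% in each direction). The smallest adjusted p of a member was 0.316. At an unadjusted p under 0.05 the same test gave 6 members higher (12.0%) and 4 lower (8.00%), against 6.17% and 8.83% of all genes tested. The 3 libraries of Sept2C111A recipients lay wholly above those of control recipients for 11 members and wholly below for 5, or 22% and 10% of the members tested, against 11.2% and 11.9% of all genes. DESeq2 at adjusted p under 0.05 called 1 member higher, Kcns3, and 1 lower, Kcnk13, of 54 with an adjusted p (1.85% each), against 0.985% and 2.89% of all genes.

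The median log2 fold change (Sept2C111A minus control recipients) of the 50 members was 0.24, beside 0.00 over all genes tested, with 29 members higher and 21 lower (58% and 42%, against 50.1% and 49.9% of all genes). Without control 1 the median was 0.44. By class the medians were 0.20 for voltage-gated pores, 0.41 for silent Kv subunits, 0.13 for auxiliary subunits, 0.39 for calcium- or sodium-activated channels, 0.62 for inward rectifiers and -0.22 for K2P channels. Single libraries moved them. The K2P median was 0.68 without control 3, the pore median ran from -0.02 (without Sept2C111A recipient 3) to 0.58 (without control 1), and the auxiliary median was -0.02 without Sept2C111A recipient 3. The median of inward rectifiers ran from 0.35 (without Sept2C111A recipient 3) to 1.08 (without Sept2C111A recipient 1) and was -0.16 over those with a mean count of at least 50. That of silent subunits was 0.22 without control 3 and 0.63 without control 2, and that of calcium- or sodium-activated channels was 0.23 without Sept2C111A recipient 1. The median of the contractile markers was 0.55, and 0.20 without control 3. The direction of 37 members, 24 higher and 13 lower, was the same whichever of the 6 libraries was omitted.

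**Figure D1:**
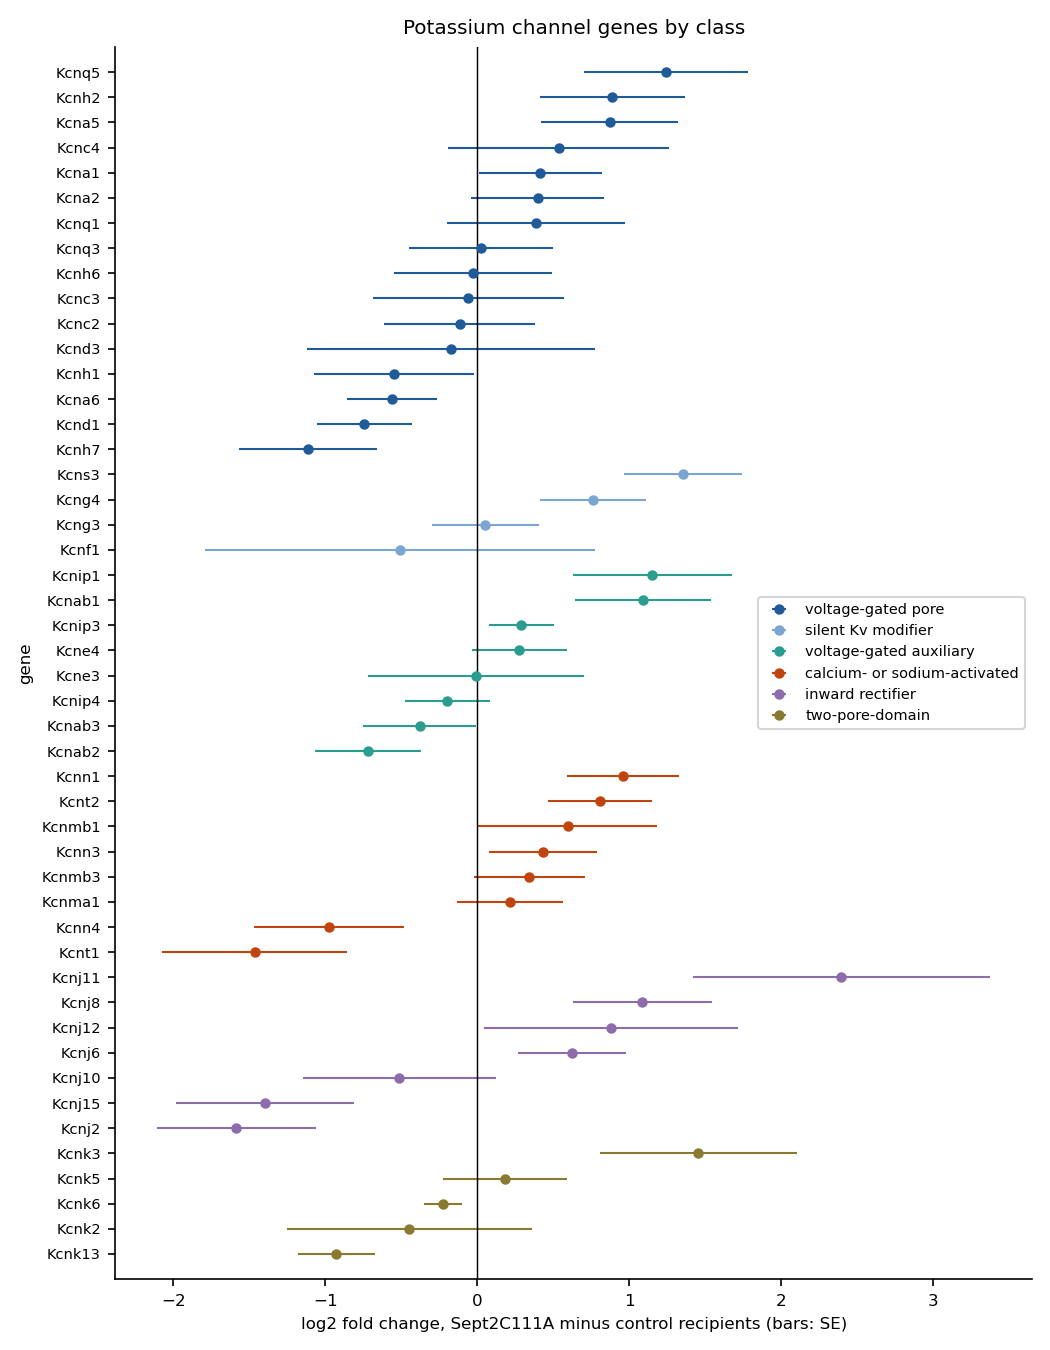
Log2 fold change of 48 of the 50 tested members (vertical axis, grouped by class) between Sept2C111A and control recipients, with bars for 1 SE from edgeR. Kcnj11 (2.40) and Kcnk3 (1.45) lie farthest to the right and Kcnj2 (-1.59) and Kcnt1 (-1.47) farthest to the left, and no member passed the adjusted test.

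Per length of exon sequence, Kcnmb1 had the highest level of the members at 33.2 CPM per kb over the 6 libraries, followed by Kcne4 (27.2), Kcnj8 (18.5), Kcnj15 (13.5) and Kcnh2 (12.3). Only these 5 exceeded 10 CPM per kb, and 32 of the 56 were under 1 CPM per kb. The levels of these 5 genes spread over overlapping ranges across libraries, so neighbours in this order were not separate.

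The BK channel is built from a pore encoded by Kcnma1 and, in smooth muscle, the beta subunit encoded by Kcnmb1, which raises its calcium sensitivity. Kcnmb1 (chromosome 11, 33963013 to 33973641, mm10) was at 121, 182 and 30.0 CPM in controls 1, 2 and 3 and at 173, 197.5 and 132 CPM in Sept2C111A recipients 1, 2 and 3. Control 3 was the single low library, and control 2 lay within the range of the other group. The means were 111 ± 76.4 and 167.5 ± 32.9 CPM (SD, n = 3 each), and the log2 difference was 0.60 (SE 0.59, edgeR adjusted p = 0.619), which was 0.15 without control 3 and 1.15 without control 2. Per 1000 CPM of the summed contractile markers, Kcnmb1 stood at 5.55, 7.37 and 3.75 in the controls and at 7.46, 6.34 and 6.10 in the Sept2C111A recipients, so it was low in control 3 on that scale too.

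Kcnma1 (chromosome 14, 23289431 to 24014491) did not share this pattern. It was at 29.2, 61.1 and 80.4 CPM in the controls, with its highest value in control 3, and at 71.6, 66.9 and 59.2 CPM in the Sept2C111A recipients. The groups overlapped (log2 fold change 0.21, SE 0.35, edgeR adjusted p = 0.772), and the direction turned to -0.09 without control 1, while it was 0.55 without control 3. Pore and beta subunit thus differed in order across the controls: control 3 held the most Kcnma1 and the least Kcnmb1. Kcnmb3, another beta subunit, was at 0.557 to 1.15 CPM in all libraries. Kcnmb4 had a mean expected count near the limit of the rule and was not tested.

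The vascular ATP-sensitive channel pairs the Kir pore encoded by Kcnj8 with the sulfonylurea receptor encoded by Abcc9. Kcnj8 (chromosome 6, 142564837 to 142571614) was at 41.9, 36.7 and 12.0 CPM in the controls and at 65.0, 78.3 and 48.9 CPM in the Sept2C111A recipients. All 3 Sept2C111A recipients lay above all controls. The means were 30.2 ± 15.9 and 64.1 ± 14.7 CPM, and the log2 difference was 1.09 (SE 0.46, edgeR adjusted p = 0.338) that was 0.71 without control 3. Per 1000 contractile CPM it stood at 1.92, 1.49 and 1.50 against 2.81, 2.51 and 2.25, still without overlap. Abcc9 was at 160, 245 and 90.9 CPM in the controls and at 295, 375 and 301 CPM in the Sept2C111A recipients, likewise without overlap (log2 fold change 0.97, SE 0.36, edgeR adjusted p = 0.319). Abcc9 is also a pericyte marker, and the pericyte list of 8 genes, which includes it, summed to 1125 to 1582 CPM in controls and 1402 to 2168 CPM in Sept2C111A recipients. Its part in the difference of Kcnj8 was not tested.

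Kv7 channels open near the resting voltage of smooth muscle. The Kv7 pore gene Kcnq5 was at 4.02, 2.68 and 1.14 CPM in the controls and at 3.63, 8.79 and 6.12 CPM in the Sept2C111A recipients, with overlap (log2 fold change 1.24, SE 0.54, edgeR adjusted p = 0.346). Kcnq1, whose counts may include reads of the opposite-strand transcript Kcnq1ot1 because the strand setting is not given, was at 1.06 to 3.51 CPM in controls and 1.44 to 4.28 CPM in Sept2C111A recipients. Its log2 fold change of 0.38 turned to -0.08 without Sept2C111A recipient 3 and was 0.99 without control 3. Kcnq3 had a log2 fold change of 0.02, which ran from -0.21 without control 3 to 0.56 without control 1.

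Among the voltage-gated pores, Kcnh2, the ERG channel known from cardiac repolarisation, had the most counts. Kcnh2 (chromosome 5, 24319589 to 24351604) was at 40.4, 68.3 and 16.4 CPM in the controls and at 89.0, 77.3 and 64.8 CPM in the Sept2C111A recipients. Control 2 lay above the lowest Sept2C111A recipient. The log2 fold change was 0.89 (SE 0.48, edgeR adjusted p = 0.393), or 0.50 without control 3 and 1.45 without control 2. Heart muscle also expresses Kcnh2, and Sept2C111A recipient 3, with the most Myh6, had the lowest Kcnh2 of its group. The part of heart muscle in Kcnh2 was not tested. Its relative Kcnh7, better known from neurons, was at 2.36, 1.33 and 1.90 CPM against 1.17, 0.453 and 0.926 CPM, without overlap (log2 fold change -1.11, SE 0.46, unadjusted p = 0.0483 and adjusted p = 0.332 by edgeR). An exon of Kcnh7 overlaps Gca on the opposite strand, so reads of the pair may be mixed.

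Kcns3 encodes a silent subunit that forms no channel alone and joins Kv2 pores. It was at 3.96, 4.52 and 1.68 CPM in the controls and at 8.25, 9.45 and 8.29 CPM in the Sept2C111A recipients. For Kcns3 all Sept2C111A recipients lay well above all controls.

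Kcns3 (chromosome 12, 11090202 to 11151056) had means of 3.39 ± 1.51 and 8.66 ± 0.68 CPM, and the log2 difference was 1.35 (SE 0.39, edgeR adjusted p = 0.316, DESeq2 adjusted p = 0.0380). It was 1.03 without control 3. With 1 library omitted at a time, DESeq2 called Kcns3 in 2 of 6 fits, those without control 2 (adjusted p = 0.00694) and without control 3 (adjusted p = 0.0138), and its adjusted p without each other library ran from 0.0805 to 0.261. On the contractile scale the controls stood at 0.182, 0.183 and 0.210 per 1000 CPM and the Sept2C111A recipients at 0.357, 0.303 and 0.382. Another silent subunit gene, Kcng3, was at 1.58 to 3.34 CPM in controls and 2.23 to 2.85 CPM in Sept2C111A recipients (log2 fold change 0.05, SE 0.35).

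The 2 members that DESeq2 called are shown by the 250 bases that precede a RefSeq start (GRCm38.p6, the same build as mm10), Kcns3 on the minus strand at chr12:11150374-11150623 and Kcnk13 on the plus strand at chr12:99964249-99964498. They had a GC content of 72.8% and 52.8%, where the median over all RefSeq windows of this length was 52.4%. The printed window of Kcns3 belongs to a start inside the annotated gene. Kcns3 also has a window at chr12:11150843-11151092 on the minus strand, not printed, with a GC content of 47.2%. The printed windows are in lower case throughout, since neither held the motif CACGTG described further on.
Kcns3: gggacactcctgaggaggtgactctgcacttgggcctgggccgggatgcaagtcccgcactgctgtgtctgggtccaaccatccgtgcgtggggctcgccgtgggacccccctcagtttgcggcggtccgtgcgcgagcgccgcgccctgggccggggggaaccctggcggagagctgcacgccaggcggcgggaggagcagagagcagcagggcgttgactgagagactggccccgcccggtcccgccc
Kcnk13: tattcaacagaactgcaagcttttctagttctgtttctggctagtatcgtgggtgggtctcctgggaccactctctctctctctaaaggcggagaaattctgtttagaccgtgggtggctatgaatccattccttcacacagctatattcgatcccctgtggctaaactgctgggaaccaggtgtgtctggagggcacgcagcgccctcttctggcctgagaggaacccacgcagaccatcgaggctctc

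Kv1 pores are delayed rectifiers that bind the cytoplasmic Kv beta subunits. Kcna5, known from arterial smooth muscle, was at 2.40, 4.68 and 3.02 CPM in the controls and at 4.84, 3.86 and 9.82 CPM in the Sept2C111A recipients, with overlap (log2 fold change 0.87, SE 0.45, edgeR adjusted p = 0.379). It was 0.38 without Sept2C111A recipient 3, the library with the most cardiac Myh6. The part of heart muscle in Kcna5 was not tested. Kcna1, Kcna2 and Kcna6, members better known from nerve, had log2 fold changes of 0.41, 0.40 and -0.56. That of Kcna1 was 0.15 without control 3 and 0.17 without Sept2C111A recipient 3, and that of Kcna2 was 0.06 without Sept2C111A recipient 1 and 0.75 without control 1. The levels of Kcna6 were 4.15 to 5.78 CPM in controls and 2.45 to 4.15 CPM in Sept2C111A recipients. Schwann cell and neuron markers (16 genes) summed to 300.4 to 447 CPM in controls and 363 to 456.5 CPM in Sept2C111A recipients. Of the 11 tested, 5 had higher and 6 lower fitted levels in Sept2C111A recipients. Pmp22 was the largest part of the sum, at 146 to 204 CPM in controls and 211 to 303.5 CPM in Sept2C111A recipients. Neuronal Tubb3 lay the other way, at 34.5, 14.0 and 15.2 CPM against 8.98, 5.19 and 4.50 CPM. The part of these markers in the Kv1 genes was not tested. Kcna3, the Kv1 pore of lymphocytes and macrophages, had a mean expected count of 6.17 and was thus no member.

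Kcnab1, the Kv beta subunit with the most counts, was among the members that lay apart. Kcnab1 (chromosome 3, 65109384 to 65378223) was at 43.0, 63.2 and 16.6 CPM in the controls and at 77.2, 90.5 and 94.0 CPM in the Sept2C111A recipients. All Sept2C111A recipients exceeded all controls. The log2 fold change was 1.09 (SE 0.45, unadjusted p = 0.0480 and adjusted p = 0.331 by edgeR), and 0.72 without control 3. On the contractile scale it stood at 1.98, 2.56 and 2.08 against 3.34, 2.91 and 4.33 per 1000 CPM. Kcnab2, a beta subunit common in leukocytes and neurons, lay the other way, at 17.4, 11.7 and 25.9 CPM against 12.5, 13.1 and 7.75 CPM, with overlap (log2 fold change -0.72, SE 0.35, edgeR adjusted p = 0.366), or -0.38 without control 3. Macrophage markers (14 genes) summed to 2097, 3302 and 4278 CPM in the controls and to 3208, 2312 and 2138 CPM in the Sept2C111A recipients. Their maximum was in control 3, where Kcnab2 was highest. Their minimum was in control 1, which had more Kcnab2 than control 2 and all Sept2C111A recipients. The part of macrophages in Kcnab2 was not tested.

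Of the remaining auxiliary subunits, Kcne4, a single-span protein that modulates Kv7 and Kv1 pores, was at 87.3, 62.6 and 45.9 CPM in the controls and at 76.4, 104.9 and 55.9 CPM in the Sept2C111A recipients (log2 fold change 0.28, SE 0.31, edgeR adjusted p = 0.660). It was 0.08 without control 3 and 0.02 without Sept2C111A recipient 2, and 0.55 and 0.49 without control 1 and Sept2C111A recipient 3. Kcnip1, a calcium-sensing partner of Kv4 pores, was at 1.84, 2.47 and 0.593 CPM against 3.21, 4.31 and 3.41 CPM, without overlap (log2 fold change 1.15, SE 0.52), or 0.75 without control 3. Kcnip3 and Kcnip4 had log2 fold changes of 0.29 and -0.20, and that of Kcnip4 was 0.07 without control 1. Kcnd1 was at 6.08, 7.05 and 12.3 CPM in the controls and at 5.46, 5.03 and 4.67 CPM in the Sept2C111A recipients, separate and lower (log2 fold change -0.74, SE 0.31, edgeR adjusted p = 0.338), or -0.38 without control 3. Kcnd3 ran from 1.24 CPM in control 3 to 29.8 CPM in control 1, with 9.72 to 23.5 CPM in Sept2C111A recipients, and its log2 fold change ran from -0.73 without control 3 to 0.41 without control 1.

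**Figure D2:**
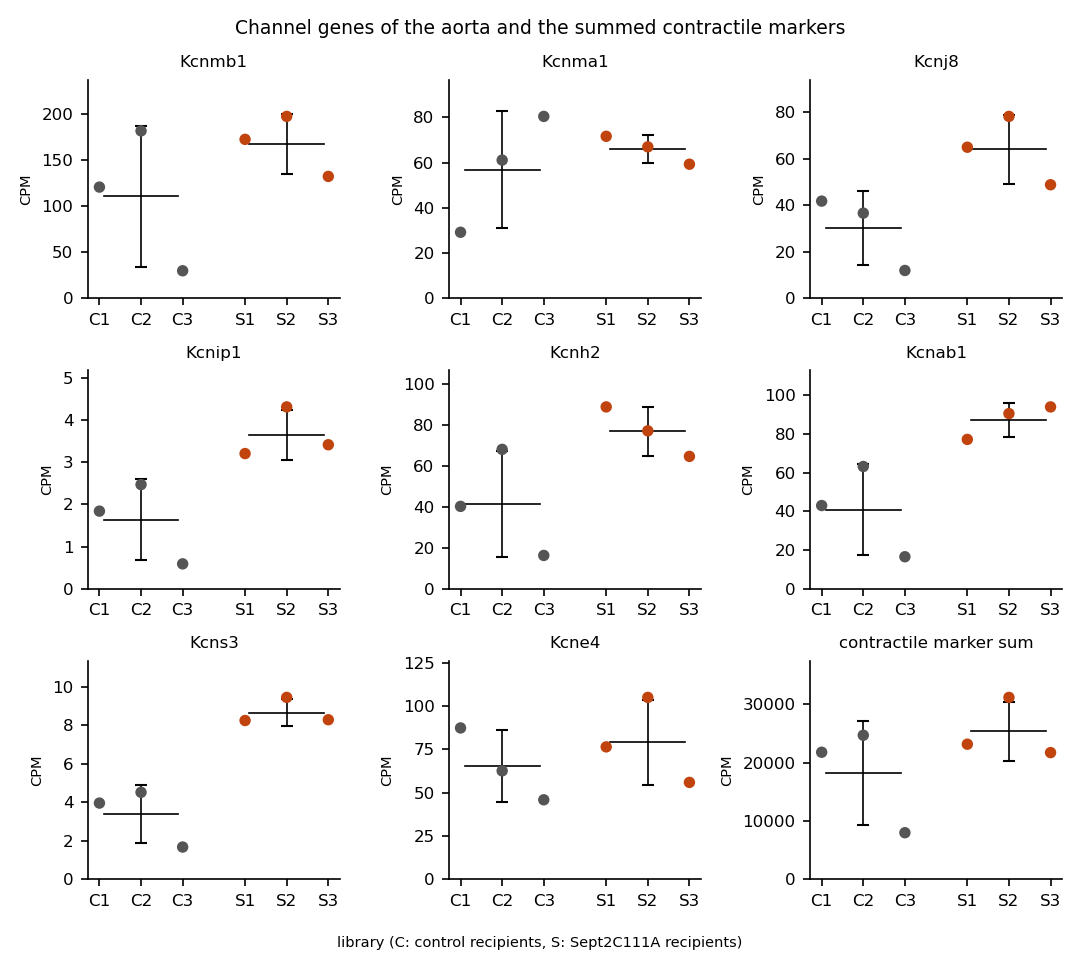
CPM of 8 channel genes and of the summed contractile markers (vertical axes from 0) in each library, with the group mean and SD as a line and bar. Control 3 has the lowest point in each panel except that of Kcnma1, where it has the highest, and the groups do not overlap for Kcnj8, Kcnab1, Kcns3 and Kcnip1.

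**Figure D3:**
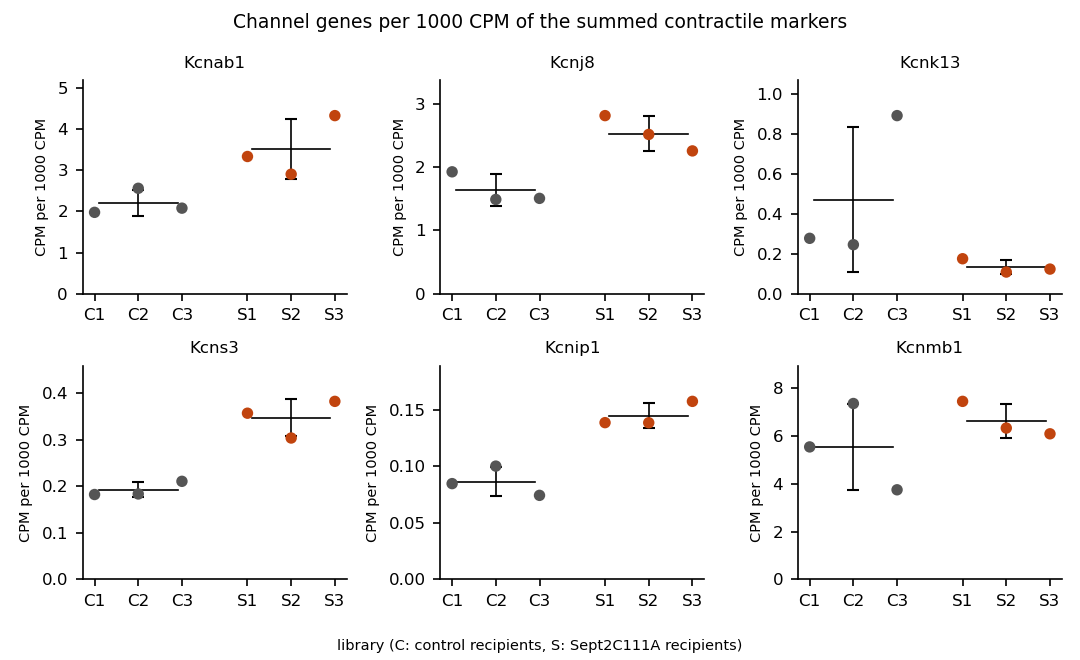
Levels of 6 members per 1000 CPM of the summed contractile markers, by library, with the group mean and SD. Kcnab1, Kcnj8, Kcns3 and Kcnip1 are higher and Kcnk13 lower in Sept2C111A recipients without overlap on this scale, and Kcnmb1 overlaps.

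On the contractile scale, 5 members lay wholly higher in Sept2C111A recipients, among them Kcnab1, Kcnip1, Kcnj8 and Kcns3, and all 5 also did so in CPM. Another 3, Kcnd1, Kcnh7 and Kcnk13, lay wholly lower on both scales. These were 10% and 6% of the members tested, against 0.608% and 14.9% of all genes on this scale, where division by the low sum of control 3 raises that library for every gene. In CPM, control 3 held the lowest value of 21 of the 50 tested members (42.0%) and the highest of 13, where 28.6% and 24.8% of all tested genes had their lowest and highest value there. The part of contractile content in these differences was not tested.

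Calcium-activated channels of small and intermediate conductance carry the endothelial hyperpolarisation that spreads to smooth muscle. Kcnn3, the SK pore of endothelium, was at 2.46, 1.79 and 2.42 CPM in the controls and at 3.10, 1.93 and 3.95 CPM in the Sept2C111A recipients (log2 fold change 0.43, SE 0.35, edgeR adjusted p = 0.552), or 0.19 without Sept2C111A recipient 3. Kcnn1, an SK pore best known from neurons, was at 1.90, 3.10 and 3.21 CPM against 4.62, 3.87 and 7.51 CPM, without overlap (log2 fold change 0.96, SE 0.37, unadjusted p = 0.0385 and adjusted p = 0.325 by edgeR). Kcnn4, the IK pore of endothelium, red cells, T cells and macrophages, was at 7.65, 6.68 and 20.7 CPM in the controls and at 7.04, 4.20 and 6.56 CPM in the Sept2C111A recipients. Control 3 alone was high: the log2 difference of -0.98 (SE 0.49, edgeR adjusted p = 0.373) was -0.27 without it. Endothelial markers (13 genes) summed to 930, 907 and 1691 CPM in the controls and to 1577, 815 and 1723 CPM in the Sept2C111A recipients. Control 3 and Sept2C111A recipients 1 and 3 thus held more of them than the other libraries. The macrophage sum was highest in control 3, at 4278 CPM, with 2097 to 3302 CPM in the others. Erythroid and lymphocyte sums were highest in control 1, at 1684 and 41.6 CPM. The part of these cell types in Kcnn4 was not tested.

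The sodium-activated pores lay in opposite directions. Kcnt2 was at 15.9, 19.4 and 7.42 CPM in the controls and at 23.0, 26.3 and 25.5 CPM in the Sept2C111A recipients, without overlap (log2 fold change 0.81, SE 0.34), or 0.50 without control 3. Kcnt1 was at 4.24, 1.47 and 2.67 CPM against 1.68, 0.442 and 0.890 CPM, with overlap (log2 fold change -1.47, SE 0.61, unadjusted p = 0.04997 and adjusted p = 0.333 by edgeR).

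Of the 7 inward rectifiers tested, 3 had lower fitted levels in Sept2C111A recipients: Kcnj2, Kcnj15 and Kcnj10. Kcnj2, the classical Kir2 pore of endothelium, muscle and macrophages (chromosome 11, 111066164 to 111076821), was at 9.57, 2.74 and 11.1 CPM in the controls and at 2.82, 2.27 and 2.68 CPM in the Sept2C111A recipients. Controls 1 and 3 were high, while control 2 was level with the Sept2C111A recipients. For Kcnj2 the log2 fold change was -1.59 (SE 0.52, unadjusted p = 0.0214 and adjusted p = 0.316 by edgeR, DESeq2 adjusted p = 0.0777). With 1 library omitted at a time, DESeq2 called Kcnj2 only without control 2 (adjusted p = 6.49e-09). Its DESeq2 adjusted p without each other library ran from 0.193 to 0.373. Without control 2, DESeq2 also called Kcnab1, Kcnh2, Kcnk3 and Kcnt2, among others (adjusted p from 0.00873 to 0.0463 for these). Neutrophil markers (13 genes, 8 of them tested) summed to 2992, 93.7 and 340 CPM in controls 1, 2 and 3 and to 22.6 to 37.3 CPM in Sept2C111A recipients, so controls 1 and 3 also led in them. Their part in Kcnj2 was not tested.

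Kcnj15, a Kir4 pore (chromosome 16, 95257558 to 95300260), had the most counts among the inward rectifiers, at 50.2, 117 and 202 CPM in the controls and 32.5, 76.5 and 31.2 CPM in the Sept2C111A recipients. Control 1 lay below Sept2C111A recipient 2, so the groups overlapped. The log2 fold change was -1.4 (SE 0.58, edgeR adjusted p = 0.334), or -0.84 without control 3. DESeq2, which did not call Kcnj15 over all libraries, called it without control 1 (adjusted p = 0.0391) and without Sept2C111A recipient 2 (adjusted p = 0.0323). Kcnj6 and Kcnj12 were at 2.06 CPM or less in every library, and Kcnj10, whose log2 fold change of -0.51 was -0.05 without control 1, at 2.90 CPM or less.

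The motif CACGTG, bound by clock factors among other E-box proteins, was searched in the same 250-base windows, where it reads alike on both strands. It occurred in the windows of 4 of the 42 members with a RefSeq entry (5 of 62 windows, 8.06%), against 6.02% of all 32851 windows. Kcnab1, higher in mean, and Kcnj2, lower in mean, were among them, and their windows are shown because the same letters precede genes whose means lay in opposite directions. The others were Kcne4 and Kcnn4. Kcnab1 has 2 such windows. The one printed, chr3:65187853-65188102 on the plus strand, belongs to a start inside the gene; the other, chr3:65108764-65109013, lies upstream of the annotated gene, with the motif 162 bases before its start. The window of Kcnj2 is chr11:111065914-111066163 on the plus strand (capitals mark CACGTG).
Kcnab1: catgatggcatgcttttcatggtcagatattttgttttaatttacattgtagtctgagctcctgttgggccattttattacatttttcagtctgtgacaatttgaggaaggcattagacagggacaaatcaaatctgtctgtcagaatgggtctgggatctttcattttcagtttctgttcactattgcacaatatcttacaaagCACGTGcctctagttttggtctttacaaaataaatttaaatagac
Kcnj2: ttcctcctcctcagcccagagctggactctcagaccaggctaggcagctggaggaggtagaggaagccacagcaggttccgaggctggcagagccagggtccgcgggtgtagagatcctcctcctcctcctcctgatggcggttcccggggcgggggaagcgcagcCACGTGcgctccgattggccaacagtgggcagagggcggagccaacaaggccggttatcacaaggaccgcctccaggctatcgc

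In the windows printed the motif starts 45 bases before the start for Kcnab1 and 84 bases before it for Kcnj2. The CArG box, the serum response factor motif of contractile genes, was searched on both strands and was in 0 of the 62 member windows, beside 1.47% of all windows. The D-box TTATGTAA, searched likewise, was in 0 of 62, beside 0.82% of all windows.

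K2P channels carry background current. Kcnk13 (chromosome 12, 99964499 to 100062682), a K2P pore known from microglia, was at 6.03, 6.05 and 7.12 CPM in the controls and at 4.05, 3.37 and 2.67 CPM in the Sept2C111A recipients. The groups were apart and the spread within each was small. The means were 6.40 ± 0.63 and 3.36 ± 0.69 CPM, and the log2 difference was -0.93 (SE 0.25, unadjusted p = 0.00930 and adjusted p = 0.316 by edgeR, DESeq2 adjusted p = 0.0331). The direction held without each library, from -1.07 to -0.77, but with 1 library omitted at a time DESeq2 called it in 0 of 6 fits, with adjusted p from 0.0533 to 0.263.

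Kcnk6, a K2P channel, lay in a narrow range, at 24.4, 23.4 and 25.5 CPM in the controls and 20.5, 19.5 and 22.7 CPM in the Sept2C111A recipients. Its groups were separate (log2 fold change -0.22, SE 0.12, edgeR adjusted p = 0.404). Kcnk3, an acid-sensitive K2P pore of smooth muscle, heart and brown fat, was at 17.5, 27.6 and 6.45 CPM in the controls and at 39.6, 21.6 and 80.0 CPM in the Sept2C111A recipients (log2 fold change 1.45, SE 0.65, edgeR adjusted p = 0.350). Without Sept2C111A recipient 3 it was 0.84. That library also held the most of the brown fat gene Ucp1, at 1159 CPM, with 541 and 162 CPM in the other Sept2C111A recipients and 299, 169 and 2.18 CPM in the controls. The whole adipocyte list (10 genes) summed to 829.5 to 3134 CPM in controls and 2033 to 4719 CPM in Sept2C111A recipients. The part of fat and heart muscle in Kcnk3 was not tested. Kcnk2 turned from a log2 fold change of -0.45 to 1.07 without control 3, which held 3.76 CPM, where the others had 0.447 to 1.34 CPM.

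**Figure D4:**
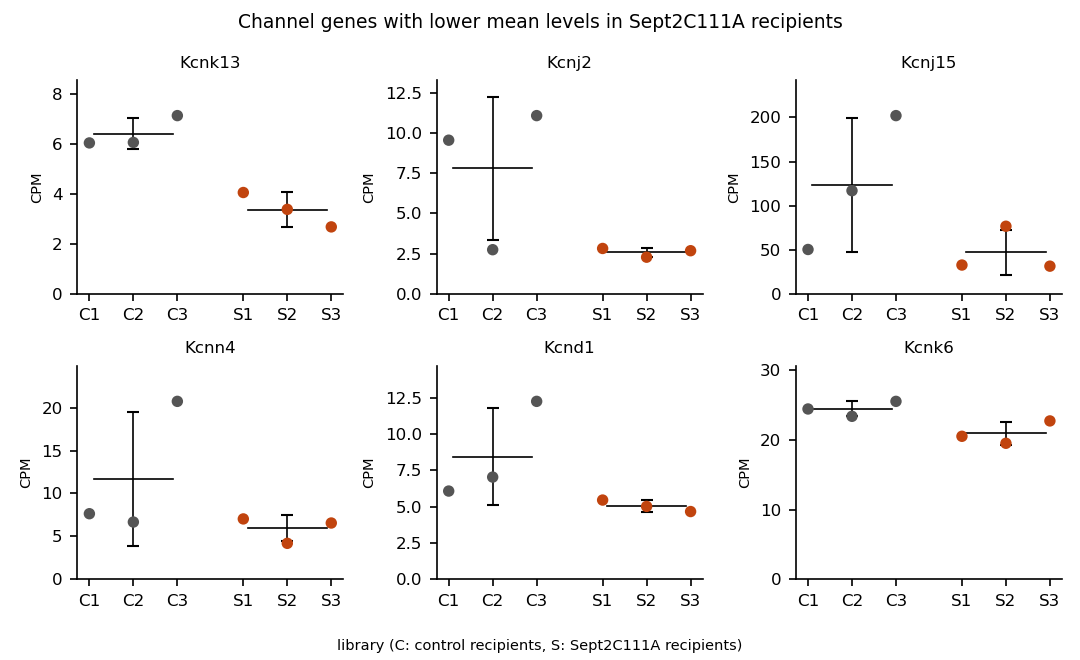
CPM of 6 members with lower mean levels in Sept2C111A recipients, by library, with the group mean and SD. Kcnk13, Kcnd1 and Kcnk6 are separate between the groups, Kcnj2 is high in controls 1 and 3, and Kcnn4 in control 3 only.

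Some members were carried by a single library. Kcnj3 and Kcnj5, which together form the acetylcholine-gated channel of the atrium, were at 21.5 and 8.85 CPM in Sept2C111A recipient 3. In the other libraries Kcnj3 had 0.893 CPM in control 1, 0.0553 CPM in Sept2C111A recipient 2 and no count in the other 3, where a count of 0 allows up to 0.148 to 0.158 CPM for counting error only. Kcnj5 was at 0.558 CPM or less outside Sept2C111A recipient 3. Kcng2, a silent Kv subunit, was at 3.28 CPM there and at 0.495 CPM or less elsewhere.

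Kcnj11, the Kir pore of cardiac ATP-sensitive channels, was at 1.17, 0.526 and 0.148 CPM in the controls and at 2.10, 0.829 and 6.79 CPM in the Sept2C111A recipients. It had the largest log2 fold change of the members tested, 2.40 (SE 0.98, unadjusted p = 0.0479 and adjusted p = 0.331 by edgeR), which was 1.27 without Sept2C111A recipient 3. The skeletal and cardiac muscle list (17 genes, none at 0 throughout) summed to 1778 CPM in Sept2C111A recipient 3 and to 21.8 to 123 CPM in the other 5 libraries. Its part in these members was not tested.

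Kcns1, a silent Kv subunit, was at 3.31 CPM in control 3 and at 0.0553 CPM or less elsewhere. Kcnj3, Kcnj5, Kcns1, Kcng2 and Kcnmb4 were among the 6 members that did not enter the test.

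**Figure D5:**
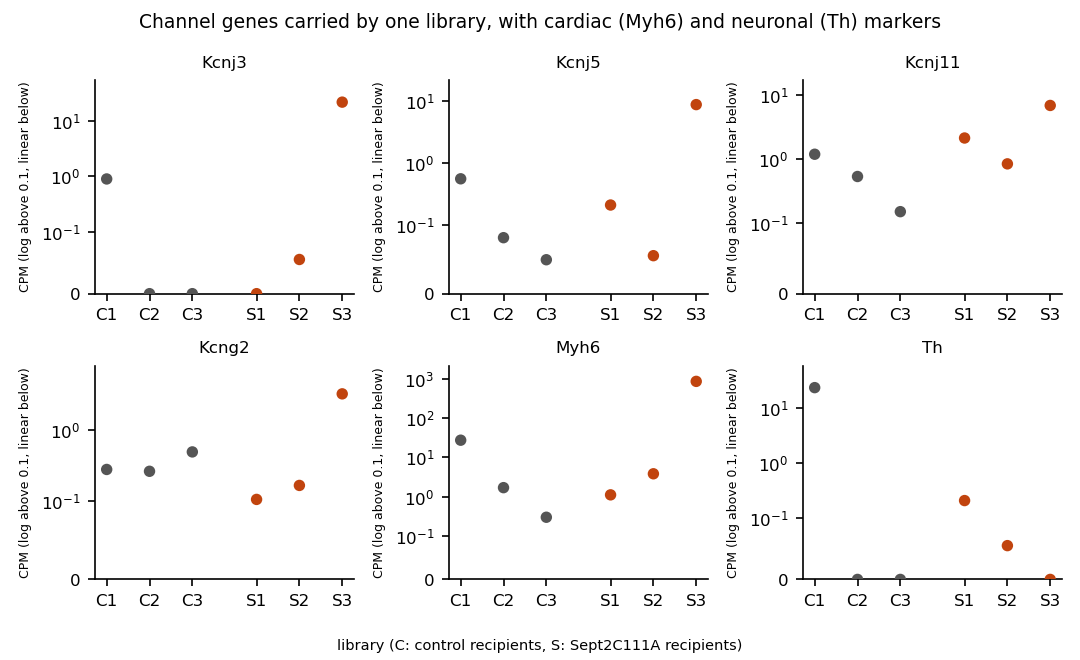
CPM of 4 members and of the cardiac marker Myh6 and the neuronal marker Th by library, on axes that are logarithmic above 0.1 CPM and linear below. Kcnj3, Kcnj5, Kcnj11, Kcng2 and Myh6 are highest in Sept2C111A recipient 3, and Th in control 1.

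Subunits that assemble with potassium channels but carry other symbols were counted as a list of 17 genes, of which 9 were tested. At an unadjusted p under 0.05, edgeR gave 2 higher and 1 lower, where 6.17% and 8.83% of all genes passed, and the median log2 fold change was 0.21. Abcc9 and Tmem38a, a channel of the sarcoplasmic reticulum membrane, were those higher. Tmem38a stood at 13.7, 15.99 and 9.40 CPM against 17.1, 19.0 and 40.2 CPM, a log2 fold change of 0.96 that was 0.48 without Sept2C111A recipient 3. Dpp6, which speeds Kv4 channels, was at 3.68, 1.32 and 3.07 CPM in the controls and at 0, 0.221 and 0.0556 CPM in the Sept2C111A recipients (log2 fold change -4.78, SE 0.90, edgeR adjusted p = 0.316, DESeq2 adjusted p = 1.94e-04). A count of 0 allows up to 0.158 CPM in Sept2C111A recipient 1, and the fitted fold change depends on the small value added to counts. The BK gamma subunit gene Lrrc26 had 0.247 CPM in control 3 and no count elsewhere.

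Calcium channels and other transporters of vascular tone were counted as a list of 40 genes, of which 39 were tested. By the same threshold edgeR gave 4 higher and 3 lower, close to the shares of 6.17% and 8.83% over all genes, and the median log2 fold change was 0.28. Stim1, the calcium store sensor, was at 51.5, 66.3 and 50.1 CPM against 84.6, 72.3 and 93.1 CPM, without overlap (log2 fold change 0.57, SE 0.16). Piezo1, a stretch-gated channel, was at 142, 116 and 177 CPM against 96.7, 103 and 86.0 CPM, without overlap (log2 fold change -0.61, SE 0.19). Cacnb4, a beta subunit of calcium channels, was at 2.29, 3.26 and 1.83 CPM against 3.84, 5.30 and 5.79 CPM, also without overlap (log2 fold change 1.01, SE 0.33). Stim1, Piezo1 and Cacnb4 each had an edgeR adjusted p of 0.316.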

How the data were processed

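RNA of 6 aortic samples, 3 per group, was measured by RNA-seq of oligo(dT)-enriched RNA. The values are expected counts per gene as deposited, one file per library; per the submitters' processing notes, Bowtie2, RSEM 1.3.1, DESeq2 1.4.5 and mm10 were used, with no role given. Neither annotation nor strandedness is stated by the labels or headers. RSEM splits reads between similar genes, and 34.6% to 35.9% of values were not whole numbers.

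Expected counts were rounded to whole numbers for the tests. In R 4.3.3, edgeR 4.0.16 (filterByExpr with a minimum count of 10, TMM scaling, quasi-likelihood F test, Benjamini-Hochberg threshold of 0.05 over 14466 genes) compared the groups. DESeq2 1.42.0 and limma 3.58.1 (voom with quality weights), other scalings and filters, a replicate block and the omission of libraries were alternatives. CPM values use unrounded counts and TMM-scaled totals. The precision of a value rests on 3 libraries per group and on totals of 17082719 to 20494928 expected counts. Limits for counts of 0 are 3 counts and cover counting error only. Within each group, no pair of libraries was a duplicate (chi-square per degree of freedom of 50.2 or more).

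Both tools were run on counts simulated for this comparison (14466 genes, 50 changed per size). Of the genes changed 2-fold, edgeR called 6 and DESeq2 17. Of those changed 4-fold they called 26 and 37, and at the larger sizes of 8 and 16 edgeR called 43 and 46. False calls numbered 10 for edgeR and 64 for DESeq2. In the data themselves edgeR called 0 of 14466 genes, so the simulated numbers of calls may not hold for these libraries.

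Gene positions and exon lengths are from GENCODE vM21 and promoter windows from RefSeq GRCm38.p6. The members and lists were chosen with earlier results of these data known. Genes were named by their known vascular or leukocyte role, as the 2 with the most counts in each class, as the 6 of smallest p in each direction or by a DESeq2 call; members named outside this rule fill in their family and were chosen after their values were seen. Some genes that the rule names are not reported here, and they are left out of the figures but kept in all counts and fits.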

Additional observations from a re-analysis of the deposited data

How the results depend on the processing

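No member passed edgeR under any scaling or filter, without any single library, or without control 3 and Sept2C111A recipient 3 together. Over all 14466 genes the main edgeR fit called 0. Neutrophil S100a8, with a log2 fold change of -7.12, was not called either (edgeR adjusted p = 0.316). With 3 libraries per group, the lack of calls thus does not show that members were unchanged. Members near the count limit are not resolved at this depth. With DESeq2, 1 member passed higher (Kcns3) and 1 lower (Kcnk13), and 11 and 7 of 56 had an unadjusted p under 0.05 (6.06% and 9.17% of all genes). The count lower at an unadjusted p under 0.05 was 2 with voom, with upper-quartile scaling and under filters of 10 or 50 mean counts. In these fits 50, 50, 56 and 31 members were tested, and the shares of all genes were 7.7%, 7.84%, 8.89% and 9.06%. Members wholly lower numbered 3 with upper-quartile scaling and under the stricter filter of 50 counts, against 10.8% and 12.4% of all genes. With voom the median was 0.43.

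Over the fits that left out 1 library each, 1 to 9 members were higher and 1 to 7 lower at an unadjusted p under 0.05, 12 to 16 lay wholly higher and 5 to 10 wholly lower, while the shares of all genes ran from 2.35% to 8.87%, 3.63% to 11.7%, 14.5% to 20.1% and 14.3% to 20.1%, and the member median ran from 0.17 to 0.44. In the same fits the log2 fold change of Kcnk2 ran from -0.87 to 1.07 (highest without control 3), that of Kcnma1 from -0.092 (without control 1) to 0.55, that of Kcng3 from -0.19 (without control 3) to 0.33, below 0 also without Sept2C111A recipient 1 (-0.019), and that of Kcnq1 from -0.080 (without Sept2C111A recipient 3) to 0.99. Kcnk2 was at 0.28 with voom and at 0.80 without controls 1 and 3, where Kcnmb1 was at -0.12. Omitting control 3 and Sept2C111A recipient 3 together, chosen after seeing the data, left 0 lower at an unadjusted p under 0.05 (3.08% of all genes). In that fit Kcng3 was at -0.22 and Kcnk2 at 0.99. The cause of these changes was not tested.

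The labels do not say whether the replicate numbers pair the samples. Same-numbered libraries had correlations of 0.02, 0.13 and -0.17, and differently numbered ones of -0.22 to 0.15. With so few libraries these values cannot show whether a pairing existed. With the replicate number as a block, 0 members passed, 8 were higher and 4 lower of 50 at an unadjusted p under 0.05 (4.28% and 6.01% of all genes), the median was 0.31 and Kcnk2 was 0.12.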
